A study of Arabidopsis thaliana with 4 samples.

Results

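The genes described here are 10 members of the ERF branch of jasmonate and ethylene defence: the transcription factors ERF1 and ORA59, the plant defensins PDF1.1, PDF1.2A, PDF1.2B, PDF1.2C, PDF1.3 and PDF1.4, the chitin-binding protein HEL (PR4) and the basic chitinase CHI-B (PR3). They were taken by gene identifier from the 24252 genes listed in any of 4 RNA-seq libraries of Arabidopsis thaliana seedlings. All 10 were listed in at least 1 library, and a gene missing from a library's list was set to 0. ORA59, 4 of the defensins (PDF1.2A, PDF1.2C, PDF1.3 and PDF1.4), HEL and CHI-B had higher transcript levels in seedlings of the feronia mutant fer-4 than in wild type (WT). PDF1.2C, PDF1.3 and PDF1.4 had enough transcript to be tested only through their fer-4 levels and so had to be higher. The calls of ORA59, PDF1.3, PDF1.4, HEL and CHI-B ended when either WT library was left out. ERF1 and PDF1.2B did not pass the test, and PDF1.1 was too low to be tested.

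Jasmonate and ethylene act together on this branch. Ethylene stabilises the factors EIN3 and EIL1, jasmonate frees them from JAZ repressors, and they activate ERF1 and ORA59. These bind the GCC box in the promoters of antifungal genes, of which the defensin PDF1.2 is the usual marker. The other branch of jasmonate signalling runs through MYC2 and drives wound-response genes such as VSP2. FERONIA (FER) is a plasma membrane receptor kinase that perceives RALF peptides and the state of the cell wall.

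The WT and fer-4 groups had 2 libraries each. Both were made from whole seedlings of the Col-0 ecotype, 7 days old, raised upright on diluted Murashige and Skoog medium with 16 h of light and 8 h of darkness, without treatment. The mutant is labelled FERONIA-/- and named fer-4, a single allele. How many seedlings went into a library is not stated here, nor whether replicates came from separate plates or days. The p-values therefore measure only how these libraries vary, which may be technical variation. Whole seedlings mix organs, so fewer cells of a type and less RNA per cell cannot be told apart. Whether the lines differ at loci other than FER cannot be told apart from the mutation in this design.

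Levels are in FPKM (fragments per kilobase of transcript scaled to mapped fragments), in the authors' deposited form. An estimate from the smallest listed values gave 19.6 to 21.4 M fragments per library. FER measured 89.0 and 91.9 FPKM in WT against 60.6 and 62.1 in fer-4. All 5 leaf markers and all 5 root markers were listed in every library. The leaf markers summed to 14334 and 15598 FPKM in WT and to 13146 and 10646 in fer-4 replicates 1 and 2, and the root markers, nearly all of it from PYK10, to 1727 and 1741 in WT and to 2053 and 2372 in fer-4. Of 4 flower markers none exceeded 1 FPKM, and of 5 seed markers only SESA1 did, at 1.34 and 1.05 FPKM in fer-4 and 0 in WT. The shoot meristem marker STM measured 2.85 and 2.76 FPKM in WT and 1.48 and 1.80 in fer-4, and CLV3 stayed below 1 FPKM. Values were compared as log2(FPKM + 1) with limma, for genes averaging 1 FPKM or more, and a gene was called at an adjusted p (Benjamini-Hochberg over all tested genes) below 0.05. Of the markers, STM and the leaf marker CAB3 were called lower in fer-4 (limma, adjusted p = 0.04996 and 0.0107). The root marker EXPA7 was called higher (limma, adjusted p = 0.0154), and no other marker was called. The leaf markers RBCS1A, CAB1 and RCA also lay below WT in both fer-4 libraries. CAB2 lay above, at 4.97 and 3.15 FPKM in WT and 8.71 and 6.01 in fer-4. CAB2 and CAB3 are listed under the same name, LHCB1.2, and the division of reads between them is uncertain. Of 19183 tested genes, 14.3% were called higher in fer-4 and 9.00% lower. These were 2743 and 1726 genes, and with quantile normalization 2285 and 2364. Both fer-4 libraries lay above both WT libraries in 34.4% of tested genes and below them in 31.7%.

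Of the 10 genes, 9 were tested, of which 7 were called higher and 0 lower, beside 14.3% called higher among all tested genes. All 9 had both fer-4 libraries above both WT libraries. This count is no support for a shift of the set, because PDF1.2B, PDF1.2C, PDF1.3 and PDF1.4 passed the filter only through their fer-4 levels and so had to differ. Of the other 5 tested genes, each above 1 FPKM in WT, 4 were called higher. The members were also chosen with earlier results of these data known.

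**Figure D1:**
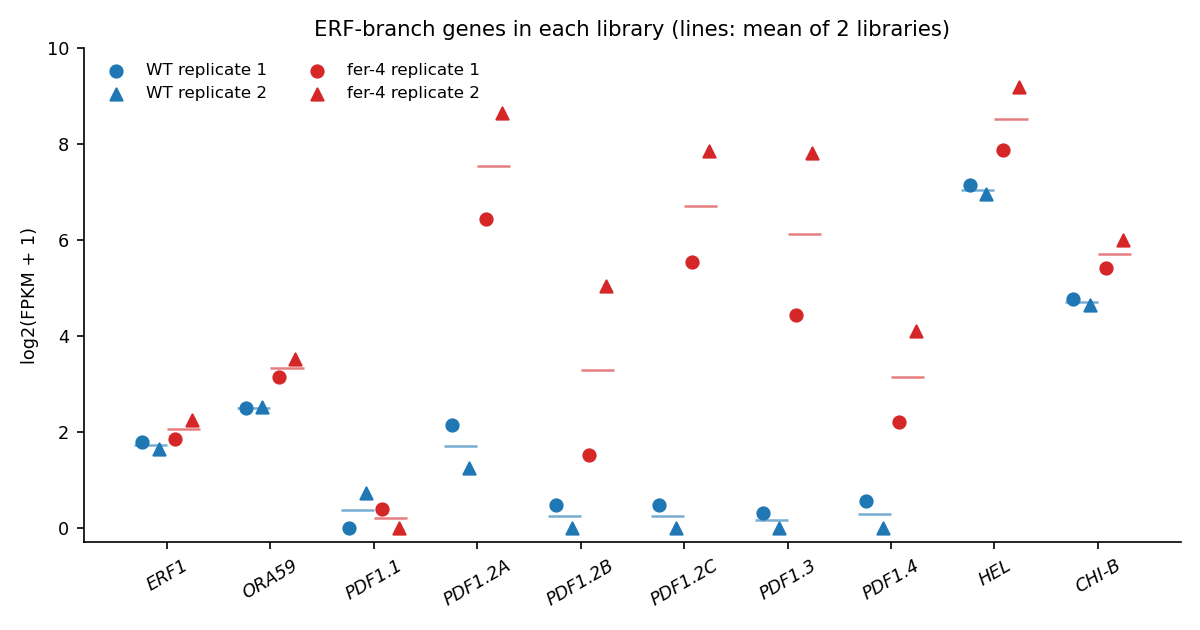
Level of each of the 10 genes, as log2(FPKM + 1), in the 2 WT libraries (blue) and the 2 fer-4 libraries (red), with horizontal lines at the mean of each group. The PDF1.2 copies, PDF1.3 and PDF1.4 lie near 0 in WT (PDF1.2A at 1.38 to 3.42 FPKM) and spread widely between the fer-4 libraries, whereas HEL and CHI-B start from a high WT level and PDF1.1 stays near 0 throughout.

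The transcription factors were weakly expressed. ERF1 (AT3G23240, listed as ERF1B; chromosome 3, 8295617 to 8296604, plus strand, 1 exon, TAIR10.1) measured 2.45 and 2.11 FPKM in the WT libraries and 2.62 and 3.73 FPKM in the mutant. The groups did not overlap, but the gap between WT replicate 1 and fer-4 replicate 1 was small. Its log2 fold change of 0.34 ± 0.18 (SE) did not pass (limma, adjusted p = 0.223). An estimated 40.6 to 70.4 fragments stood behind each ERF1 value.

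ORA59 (AT1G06160, listed as ERF094; chromosome 1, 1882907 to 1883992, plus strand, 1 exon) measured 4.59 and 4.68 FPKM in the WT libraries and 7.79 and 10.5 FPKM in the mutant. The WT libraries were nearly equal and both fer-4 libraries were higher, by 1.97-fold in the means. The log2 fold change was 0.83 ± 0.15 (limma, adjusted p = 0.013). The call ended without WT replicate 1 or without WT replicate 2 (adjusted p = 0.0844 and 0.0885), with a fold change of 0.82 and 0.85. ORA59 was thus the more abundant of these factors per length in all 4 libraries, and the sizes of their changes were not tested against each other.

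The 250 bases before the annotated transcript start of ORA59 (TAIR10.1, chr1:1882657-1882906, plus strand) are shown because they hold both a GCC core, GCCGCC, and a G-box, CACGTG, the motif bound by MYC2. Both motifs are in capitals, written 5′ to 3′ on the gene's strand:
ORA59: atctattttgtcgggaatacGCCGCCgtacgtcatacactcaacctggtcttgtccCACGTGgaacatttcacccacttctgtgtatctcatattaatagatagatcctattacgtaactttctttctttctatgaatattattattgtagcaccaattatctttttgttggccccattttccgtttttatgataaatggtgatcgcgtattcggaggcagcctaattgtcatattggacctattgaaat
The GCC core began 230 bases before the start and the G-box 194 bases before it. Among 27443 promoters of protein-coding genes, 1.87% held the GCC core and 6.49% the G-box in this window, on either strand.

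The defensins showed the widest range. PDF1 proteins are small, secreted, cysteine-rich peptides that act against fungi. PDF1.2A (AT5G44420) and PDF1.2C (AT5G44430) are neighbours on chromosome 5, with 1211 bases between them, and PDF1.3 (AT2G26010) and PDF1.2B (AT2G26020) are neighbours on chromosome 2, with 1121 bases between them. Their coding sequences are shown because their likeness limits how far the reads of each copy can be told apart. Each has 243 bases, written 5′ to 3′ from TAIR10.1, and capitals mark the 27 positions at which the 4 copies are not all the same:
PDF1.2A: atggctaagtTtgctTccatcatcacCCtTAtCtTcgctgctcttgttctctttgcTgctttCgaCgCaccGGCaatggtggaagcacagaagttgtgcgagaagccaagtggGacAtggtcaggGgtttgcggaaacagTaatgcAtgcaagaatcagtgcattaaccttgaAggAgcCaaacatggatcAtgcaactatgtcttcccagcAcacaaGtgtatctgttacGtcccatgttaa
PDF1.2B: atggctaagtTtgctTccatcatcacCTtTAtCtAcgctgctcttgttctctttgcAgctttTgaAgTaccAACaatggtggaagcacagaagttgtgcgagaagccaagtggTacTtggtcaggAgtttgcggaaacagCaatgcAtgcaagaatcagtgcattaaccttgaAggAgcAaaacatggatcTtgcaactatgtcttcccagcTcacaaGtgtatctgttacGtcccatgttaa
PDF1.2C: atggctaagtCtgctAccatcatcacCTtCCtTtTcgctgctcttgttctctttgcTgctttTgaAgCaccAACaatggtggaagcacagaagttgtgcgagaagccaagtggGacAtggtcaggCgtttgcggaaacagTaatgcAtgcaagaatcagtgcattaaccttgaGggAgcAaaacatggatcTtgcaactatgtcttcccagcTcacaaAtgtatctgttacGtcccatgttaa
PDF1.3: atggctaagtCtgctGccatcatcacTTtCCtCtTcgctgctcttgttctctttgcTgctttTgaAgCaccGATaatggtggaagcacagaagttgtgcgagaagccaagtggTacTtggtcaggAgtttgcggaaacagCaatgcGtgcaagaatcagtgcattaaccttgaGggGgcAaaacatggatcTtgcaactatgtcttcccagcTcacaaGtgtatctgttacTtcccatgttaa
They lie on chr5:17907216-17907550 (minus strand), chr2:11089281-11089597 (plus strand), chr5:17909092-17909444 (minus strand) and chr2:11087411-11087755 (plus strand), each with 1 intron left out. Pairs of copies differed at 13 to 21 positions, with 91.4% identity between PDF1.2A and PDF1.3 and 94.7% between PDF1.2C and PDF1.3. The longest run shared without a difference was 72 bases, between PDF1.2B and PDF1.3. PDF1.1 differed from these copies at 23 to 31 positions. The sources used here do not say how reads that match several copies were counted, so the division among copies is uncertain.

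The WT libraries held PDF1.2A at 3.42 and 1.38 FPKM, and the fer-4 libraries at 85.7 and 398 FPKM. Both fer-4 libraries stood far above WT, and the second far above the first. The ratio of means was 101-fold, and the log2 fold change of FPKM + 1 was 5.84 ± 0.69 (limma, adjusted p = 0.0029). PDF1.2C measured 0.378 and 0 FPKM in the WT libraries and 45.8 and 232 in the mutant (6.47 ± 0.69, adjusted p = 0.00197). PDF1.3 measured 0.226 and 0 FPKM in the WT libraries and 20.5 and 224 in the mutant (5.97 ± 0.99, adjusted p = 0.00946). In WT replicate 1 the values of PDF1.2C and PDF1.3 stood for an estimated 3.48 and 2.27 fragments, so no ratio is given. The calls of PDF1.2A and PDF1.2C passed in all 13 alternatives. These include a pairing of libraries chosen after seeing the data and the fits with 1 fer-4 library. In the latter the spread comes from WT alone, so they are no sign of stability. The call of PDF1.3 ended without WT replicate 1 or 2, with log2 fold changes of 6.12 and 5.82.

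PDF1.2B was the least abundant of the 4 copies in fer-4. It measured 0.392 and 0 FPKM in the WT libraries and 1.85 and 32.1 FPKM in the mutant. The fer-4 libraries differed 17.3-fold, the widest gap among the 10 genes. Its log2 fold change of 3.04 ± 1.04 did not pass (limma, adjusted p = 0.0861), but it passed with replicate number as a block (adjusted p = 0.0345). With fer-4 replicate 2 alone the log2 fold change was 4.81, and with fer-4 replicate 1 alone it was 1.27. Those fits also passed, but with 1 fer-4 library their spread came from the WT values of 0.392 and 0 FPKM and carries no information on fer-4.

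The 4 copies were also summed, which lessens but does not remove the dependence on how reads were divided among them. FPKM divides by transcript length, and the lengths used here ran from 274 bases for PDF1.2B to 495 for PDF1.3, so a fragment counts for more in 1 copy than in another. The summed FPKM was 4.41 and 1.38 in WT and 154 and 885 in fer-4. The WT libraries were both low and the fer-4 libraries differed 5.75-fold from each other. The log2 fold change of the sum was 6.69 ± 0.81 (limma, adjusted p = 0.00306). It passed in all 13 alternatives, of which those with 1 fer-4 library are no sign of stability. Without fer-4 replicate 2 the log2 fold change was 5.43, and without fer-4 replicate 1 it was 7.95.

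The share of each copy in this sum differed between libraries. PDF1.2A made up 77.4% and 100% of the sum in WT, where the sum was low, and 55.7% and 44.9% in fer-4 replicates 1 and 2. PDF1.3 made up 13.3% in fer-4 replicate 1 and 25.3% in replicate 2. PDF1.2C stayed between 26.2% and 29.8% in fer-4, and PDF1.2B at 1.203% and 3.63%. With 2 libraries these shares are given as values, without a test.

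**Figure D2:**
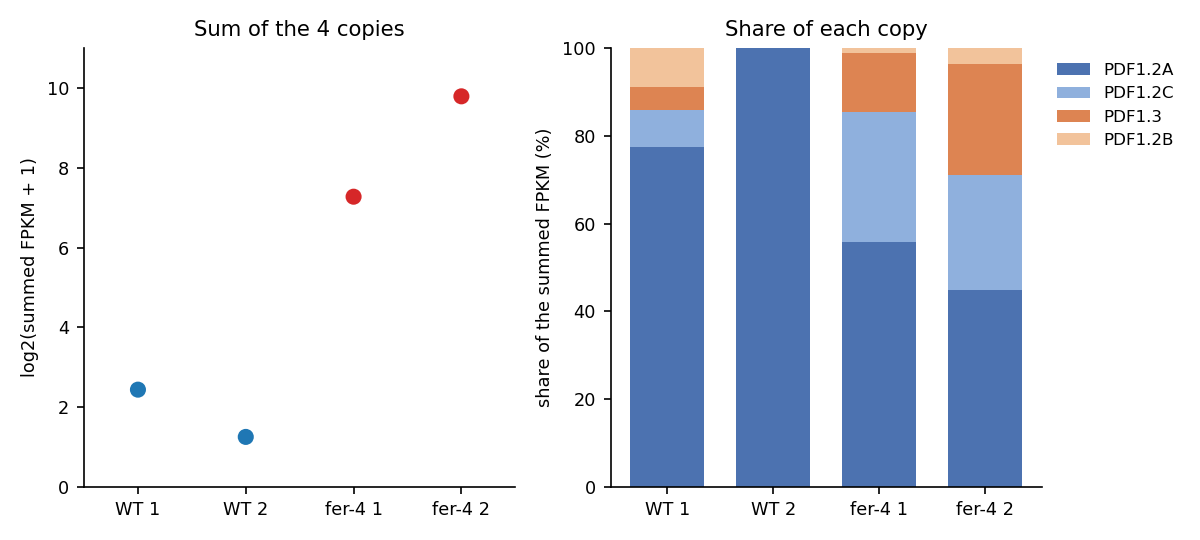
Left, the summed level of PDF1.2A, PDF1.2B, PDF1.2C and PDF1.3 in each library, as log2(summed FPKM + 1), and right, the share (%) of each copy in that sum. The sum is 4.41 and 1.38 FPKM in WT, against 154 and 885 in the mutant, and PDF1.3 takes a larger share in fer-4 replicate 2 (25.3%) than in replicate 1 (13.3%).

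The promoters of 3 of these copies are shown because copies with and without a GCC box all had their highest level in fer-4 replicate 2. Each line gives the 250 bases before the annotated start, 5′ to 3′ on the gene's strand, with the box AGCCGCC in capitals:
PDF1.2A: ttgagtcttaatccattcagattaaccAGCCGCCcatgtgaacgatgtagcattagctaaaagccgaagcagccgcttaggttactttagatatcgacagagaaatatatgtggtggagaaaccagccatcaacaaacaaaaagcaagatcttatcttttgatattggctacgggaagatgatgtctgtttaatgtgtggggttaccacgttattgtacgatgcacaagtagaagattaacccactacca
PDF1.2B: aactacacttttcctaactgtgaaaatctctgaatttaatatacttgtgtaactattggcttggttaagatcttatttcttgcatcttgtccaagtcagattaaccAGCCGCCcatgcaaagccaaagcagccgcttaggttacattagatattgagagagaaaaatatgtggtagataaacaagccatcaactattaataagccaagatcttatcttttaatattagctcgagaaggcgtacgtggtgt
PDF1.2C: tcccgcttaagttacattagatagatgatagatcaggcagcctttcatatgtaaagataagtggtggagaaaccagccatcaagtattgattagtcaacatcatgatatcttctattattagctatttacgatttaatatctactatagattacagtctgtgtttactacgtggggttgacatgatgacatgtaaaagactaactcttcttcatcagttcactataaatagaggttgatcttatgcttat
They lie on chr5:17907639-17907888 (minus strand), chr2:11088873-11089122 (plus strand) and chr5:17909508-17909757 (minus strand). The box began 223 bases before the start of PDF1.2A and 144 bases before that of PDF1.2B, and 0.587% of all promoters held it in this window. The letters GCCGCC were not in the 1000 bases before PDF1.2C or PDF1.3. In fer-4 replicate 2 PDF1.2C and PDF1.3 reached 232 and 224 FPKM, and PDF1.2A and PDF1.2B, with the box, 398 and 32.1 FPKM. The division of reads among the copies is uncertain, and a relation of the box to the level was not tested. Within 1000 bases the core was found at 5 of the 10 genes (ORA59, PDF1.2A, PDF1.2B, HEL and CHI-B), against 8.44% of all promoters, and the full box at 3, against 2.83%. The core lies inside the full box, so these counts overlap. A match describes the letters in the window and not binding.

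**Figure D3:**
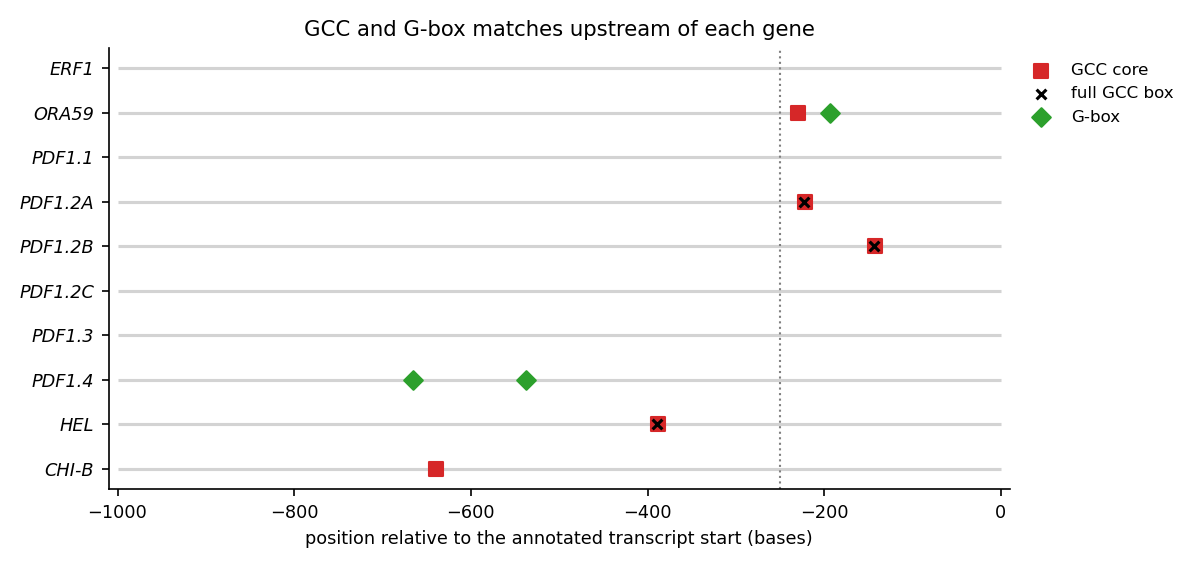
Matches to the GCC core (red squares), the full GCC box (black crosses) and the G-box (green diamonds) in the 1000 bases before the annotated start of each gene, in bases from the start; the dotted line marks 250 bases. ORA59, PDF1.2A and PDF1.2B have a core within 250 bases, HEL and CHI-B further upstream, and PDF1.4 has 2 G-boxes.

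PDF1.4 (AT1G19610; chromosome 1, 6781483 to 6782216, minus strand) measured 0.473 and 0 FPKM in the WT libraries and 3.58 and 16.0 FPKM in the mutant. It was a further defensin with little transcript in WT, an estimated 4.25 fragments in WT replicate 1. The log2 fold change was 2.86 ± 0.59 (limma, adjusted p = 0.0193). The call ended without WT replicate 1 or 2 (adjusted p = 0.0841 and 0.132) and without the filter on low genes (0.0562). Its 2 G-boxes began 666 and 538 bases before the start, where 14.8% of all promoters held a G-box within 1000 bases.

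PDF1.1 (AT1G75830; chromosome 1, 28472357 to 28472898, plus strand), a defensin known from seeds, was listed at 0.637 FPKM in WT replicate 2 and 0.306 in fer-4 replicate 1 and was not listed in the other two libraries. The groups overlapped, and its mean was below the filter. These values stood for an estimated 5.46 and 2.79 fragments.

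HEL and CHI-B were abundant already in WT. HEL (AT3G04720; chromosome 3, 1285425 to 1286760, minus strand), a hevein-like protein that binds chitin, measured 140 and 123 FPKM in the WT libraries and 233 and 579 FPKM in the mutant. Both fer-4 libraries were above WT. Among all genes listed, HEL had rank 835 and 970 in WT replicates 1 and 2, and rank 451 and 91 in fer-4 replicates 1 and 2. The ratio of means was 3.08-fold, with a log2 fold change of 1.48 ± 0.39 (limma, adjusted p = 0.0436). This call lay near the threshold: it ended without WT replicate 1 or 2 (adjusted p = 0.155 and 0.204), without the filter (0.0998), with quantile normalization (0.0597) and without the mean-variance trend (0.0626).

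CHI-B (AT3G12500; chromosome 3, 3962136 to 3963984, minus strand), a vacuolar chitinase that degrades fungal walls, measured 26.1 and 23.98 FPKM in the WT libraries and 41.9 and 62.6 FPKM in the mutant. The WT libraries were close to each other and both fer-4 libraries were higher, by 2.09-fold in the means. The log2 fold change was 1.01 ± 0.19 (limma, adjusted p = 0.0135), and the call ended without WT replicate 1 or 2 (adjusted p = 0.0762 and 0.106). The lncRNA AT3G12502 overlaps CHI-B on the opposite strand and shares its locus in the files, where it was listed at 0.234 to 0.365 FPKM. The sources used here do not state the strand setting, so the division of reads between them is uncertain.

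In order of mean level, HEL stood first in both groups. In WT it was followed by CHI-B (25.02 ± 1.48 FPKM, SD, n = 2), ORA59 (4.63 ± 0.059), PDF1.2A (2.397 ± 1.44) and ERF1 (2.28 ± 0.243), and each of the other defensins was below 1 FPKM. PDF1.2A and ERF1 overlapped in WT, and the defensins below 1 FPKM overlapped one another. In fer-4 HEL (406 ± 245) was followed by PDF1.2A (242 ± 221), PDF1.2C (139 ± 131), PDF1.3 (122 ± 144), CHI-B (52.2 ± 14.6), PDF1.2B (17.0 ± 21.4), PDF1.4 (9.80 ± 8.80), ORA59 (9.14 ± 1.91), ERF1 (3.18 ± 0.79) and PDF1.1 (0.153 ± 0.216). Across the fer-4 libraries, neighbours in this order from HEL to CHI-B overlapped, as did PDF1.2B with PDF1.4 and PDF1.4 with ORA59. Within each fer-4 library HEL, PDF1.2A, PDF1.2C and PDF1.3 kept this order, with the division of reads among the copies uncertain. The pairs PDF1.3 and CHI-B, PDF1.2B and PDF1.4, and PDF1.4 and ORA59 changed order between the fer-4 libraries. Among all genes, PDF1.2A had rank 15760 and 18155 in WT replicates 1 and 2, and rank 1514 and 200 in fer-4 replicates 1 and 2.

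The fer-4 libraries differed from each other in these genes. All 9 tested genes were higher in fer-4 replicate 2 than in replicate 1, against 52.8% of all tested genes. On log2(FPKM + 1), 6 of the 9 were at least 2-fold higher (PDF1.2A, PDF1.2B, PDF1.2C, PDF1.3, PDF1.4 and HEL), against 0.839% of all tested genes. ERF1 and ORA59 were higher by 0.39 and 0.39, a difference reached by 5.88% and 5.96% of tested genes. PDF1.2B, PDF1.2C, PDF1.3 and PDF1.4 passed the filter only through their fer-4 levels. The division of reads among the PDF1.2 and PDF1.3 copies is uncertain, so these copies are not independent. The counts are therefore no support for a difference of the set. In WT, the 4 defensins with only 2.18 to 4.25 estimated fragments in replicate 1 give no usable order of the replicates. Of the other 5, ORA59 was nearly equal and ERF1, PDF1.2A, HEL and CHI-B were lower in replicate 2, as were 57.7% of all tested genes. The leaf marker sum was lowest and the root marker sum highest in fer-4 replicate 2, but the single markers did not all follow. The ratio of fer-4 replicate 2 to 1 was 1.16 for PYK10, which makes up nearly all of the root sum. It was 0.99 for COBL9, 0.94 for EXPA7, 0.99 for SCR and 1.08 for MYB36. For the leaf markers it was 0.79 (RBCS1A), 0.76 (RCA), 0.95 (CAB1), 0.69 (CAB2) and 1.05 (CAB3). The part of organ proportions in these levels was not tested.

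Each fer-4 library was also set alone against WT. In these fits the spread comes from the WT libraries, and the lone fer-4 library is assumed to vary like them. The SE of HEL was then 0.15 in both, against 0.39 with all libraries, so the 8 calls made in each are no sign of stability. The log2 fold changes were smaller without fer-4 replicate 2: 0.64 for ORA59, 4.74 for PDF1.2A, 5.32 for PDF1.2C, 4.28 for PDF1.3, 1.92 for PDF1.4, 0.82 for HEL and 0.72 for CHI-B. Without fer-4 replicate 1 they were 1.03, 6.94, 7.63, 7.67, 3.81, 2.13 and 1.29 in the same order. Each fer-4 library alone thus gave a higher level than WT for these 7 genes, and the size of the difference depended on which was used. Without WT replicate 1, as without WT replicate 2, 2 of the 9 were called, PDF1.2A and PDF1.2C.

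**Figure D4:**
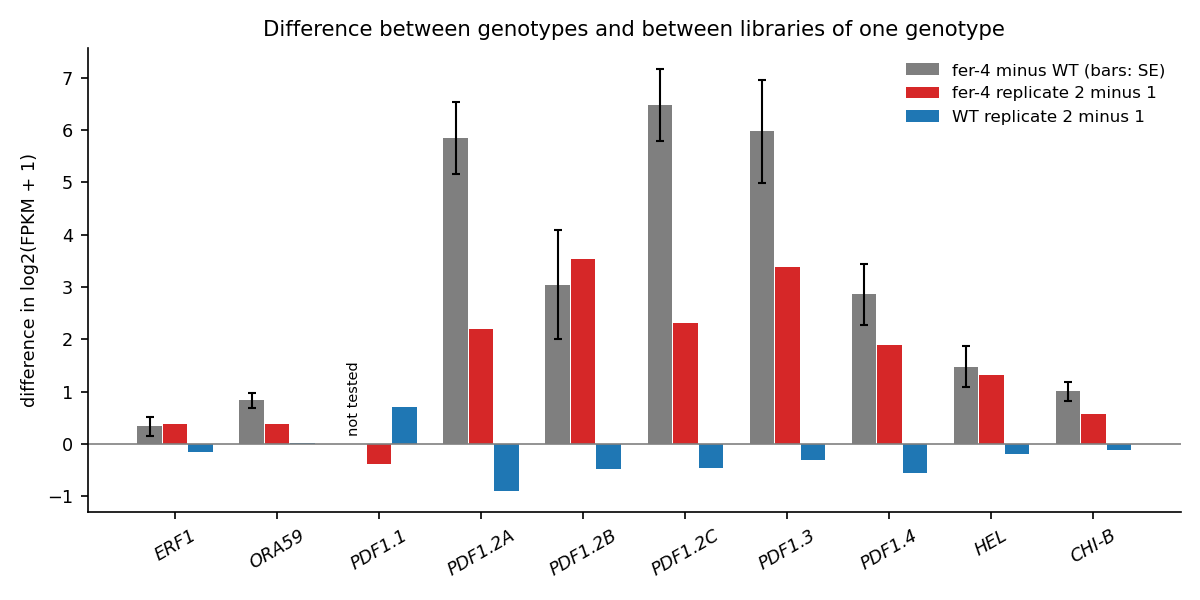
Differences in log2(FPKM + 1) for each gene: fer-4 minus WT with its standard error from limma (grey), fer-4 replicate 2 minus replicate 1 (red) and WT replicate 2 minus replicate 1 (blue). For PDF1.2B and ERF1 the red bar is as long as the grey one or longer, and for ORA59 the genotype difference of 0.83 exceeds the fer-4 library difference of 0.39.

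Set against their own fer-4 mean, the WT levels differed widely between the members. For PDF1.2A they were 1.41% and 0.571% of that mean in WT replicates 1 and 2. The WT levels of HEL were 34.6% and 30.3% of its fer-4 mean and those of ORA59 50.3% and 51.2%. No such share is given for PDF1.2B, PDF1.2C, PDF1.3 and PDF1.4, whose WT values rest on few fragments.

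The other genes of the pathway were taken from lists by role. Of 17 genes of ethylene and jasmonate signalling upstream of ERF1 and ORA59, all were tested, 2 were called higher and 0 lower, and the median log2 fold change was 0.26, beside 0.01 over all tested genes. Beside the list counts here and below, 14.3% of all tested genes were called higher and 9.00% lower. JAZ9, a jasmonate-induced repressor, rose 5.76-fold, from 41.2 and 38.2 to 210 and 246 FPKM (2.49 ± 0.11, limma, adjusted p = 0.000194). CTR1, the kinase that restrains ethylene signalling, rose 1.29-fold, from 35.8 and 34.2 to 43.6 and 46.8 FPKM (adjusted p = 0.0314), a call that ended without WT replicate 1, WT replicate 2 or fer-4 replicate 2 (adjusted p = 0.112, 0.165 and 0.119), with the replicate number as a block (0.0800) and without the mean-variance trend (0.0580). EIN3, EIL1 and COI1, chosen for their role with their values known, were not called. EIN3 measured 58.9 and 57.7 FPKM in WT and 69.3 and 70.2 in fer-4 (adjusted p = 0.0678), EIL1 29.7 and 30.6 against 38.4 and 35.6 (adjusted p = 0.0606), and COI1, the jasmonate co-receptor, 16.7 and 15.8 against 16.4 and 15.5 (adjusted p = 0.861). The upstream list had 6 genes called higher without fer-4 replicate 1 and 1 without any other single library.

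Of 15 other ERF activators, 11 were tested and 1 was called higher, with a median of 0.44. ERF6 rose 3.42-fold, from 12.1 and 12.1 to 34.7 and 48.1 FPKM in the mutant (1.68 ± 0.16, limma, adjusted p = 0.00129). This count was 4 without either fer-4 library and 4 with the replicate block. Of 7 ERF repressors all were tested and 0 were called by limma, with 2 at an unadjusted p under 0.05 and a median of 0.29, and without fer-4 replicate 1, or with TPM scaling, the count was 1. Of 15 cross-talk regulators from the salicylate and MYC branches, 14 were tested, 2 were called higher and 1 lower. MYC2, the main factor of the other jasmonate branch, rose 1.80-fold, from 44.8 and 44.4 to 70.9 and 89.6 FPKM (adjusted p = 0.00696), and its relative MYC3 rose from 22.3 and 22.3 to 29.6 and 33.0 FPKM (adjusted p = 0.0166). WRKY70, a salicylate-induced factor, fell from 46.8 and 44.8 to 14.01 and 23.5 FPKM (-1.29 ± 0.22, limma, adjusted p = 0.0105). These 3 calls ended without WT replicate 1 (adjusted p = 0.0579, 0.096 and 0.0806) and without WT replicate 2 (0.0652, 0.104 and 0.0802), and that of MYC3 also without fer-4 replicate 2 (0.0597). Without fer-4 replicate 1, 5 regulators were called higher.

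Other defensins and thionins went both ways. Of 12, 7 were tested, 2 were called higher and 1 lower, with a median of -0.05. The 2 called higher, AT1G66100 and THI2.2, had WT means of 0.191 and 0.489 FPKM. They passed the filter only through their fer-4 levels and so had to be higher. The thionin gene AT1G66100 measured 0 and 0.382 FPKM in the WT libraries and 54.1 and 76.8 FPKM in the mutant (5.80 ± 0.22, limma, adjusted p = 0.000133), and the thionin THI2.2 rose from 0.283 and 0.694 to 3.90 and 2.45 FPKM (adjusted p = 0.0091), a call that ended without WT replicate 1 (0.0602). PDF2.3, a defensin of the second class, fell from 562 and 482 to 360 and 368 FPKM (adjusted p = 0.0313), a call that ended without any single library (adjusted p = 0.0665 to 0.142), with the replicate block (0.112) and without the filter (0.0650). Without fer-4 replicate 1, 2 genes of the list were called lower. PDF1.5, the remaining gene named as PDF1, was listed in none of the 4 libraries.

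Of 19 other chitinases, glucanases and antifungal proteins, 17 were tested, 7 were called higher and 0 lower, with a median of 0.84. BG2, with a WT mean of 0.977 FPKM, passed the filter only through its fer-4 levels and so had to be higher. Among the called genes, the 3 largest rises were those of the glucanase BG2 (PR2), from 1.42 and 0.528 to 10.2 and 30.2 FPKM (3.28 ± 0.48, limma, adjusted p = 0.00623), of the glycosyl hydrolase gene AT4G16260, from 64.3 and 54.5 to 109 and 224 FPKM (adjusted p = 0.0275), and of the chitinase-family gene AT1G56680, from 2.398 and 1.97 to 5.49 and 7.49 FPKM (adjusted p = 0.00533). PR1, a salicylate marker chosen for mention with its values known, stood at 2.48 and 0.512 FPKM in WT against 4.88 and 82.4 in fer-4, with a log2 fold change of 3.27 ± 1.16 that did not pass (adjusted p = 0.0954). The count was 4 without WT replicate 1, 1 without WT replicate 2 and 13 without fer-4 replicate 1. Without WT replicate 2 these 3 calls ended (adjusted p = 0.0642, 0.162 and 0.0526), and without WT replicate 1 that of AT4G16260 ended too (0.112). Without the filter the count was 4.

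The 3 further defence genes ACT, LAL5 and RAP2-6, chosen with earlier results of these data known, were all called higher. ACT, an acyltransferase of antifungal hydroxycinnamic acid amides, rose 12.04-fold, from 2.37 and 1.34 to 14.9 and 29.8 FPKM (2.98 ± 0.33, limma, adjusted p = 0.00228). LAL5 (AT3G23550), annotated as a MATE efflux protein, rose 10.2-fold, from 11.7 and 8.86 to 92.3 and 117 FPKM (3.23 ± 0.16, adjusted p = 0.000254). RAP2-6, another ERF-type factor, rose 11.1-fold, from 1.80 and 0.882 to 8.05 and 21.8 FPKM (adjusted p = 0.00922), a call that ended without WT replicate 2 (0.0824).

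Of 7 outputs of the MYC branch, all tested, 5 were called higher and 0 lower, with a median of 2.77, and CLH1, NATA1, TAT3, VSP1 and VSP2 rose. NATA1 and TAT3, with WT means of 0.285 and 0.643 FPKM, passed the filter only through their fer-4 levels and so had to be higher. The count and median are therefore no support for a shift of this list. VSP2, a vegetative storage protein, measured 9.97 and 13.96 FPKM in WT and 72.5 and 102 in fer-4, and NATA1, which acetylates ornithine, 0.57 and 0 against 10.9 and 89.5. The median difference between fer-4 replicates 2 and 1 was 1.28 on the log2 scale over these 7 genes and 1.89 over the 9 tested ERF-branch genes, beside 0.01 over all tested genes. Both of these gene sets include genes that passed the filter only through their fer-4 levels, and no difference between the branches was tested. Without either WT library the MYC-branch count was 2, and the calls of NATA1, TAT3 and VSP1 ended (adjusted p from 0.0702 to 0.17).

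**Figure D5:**
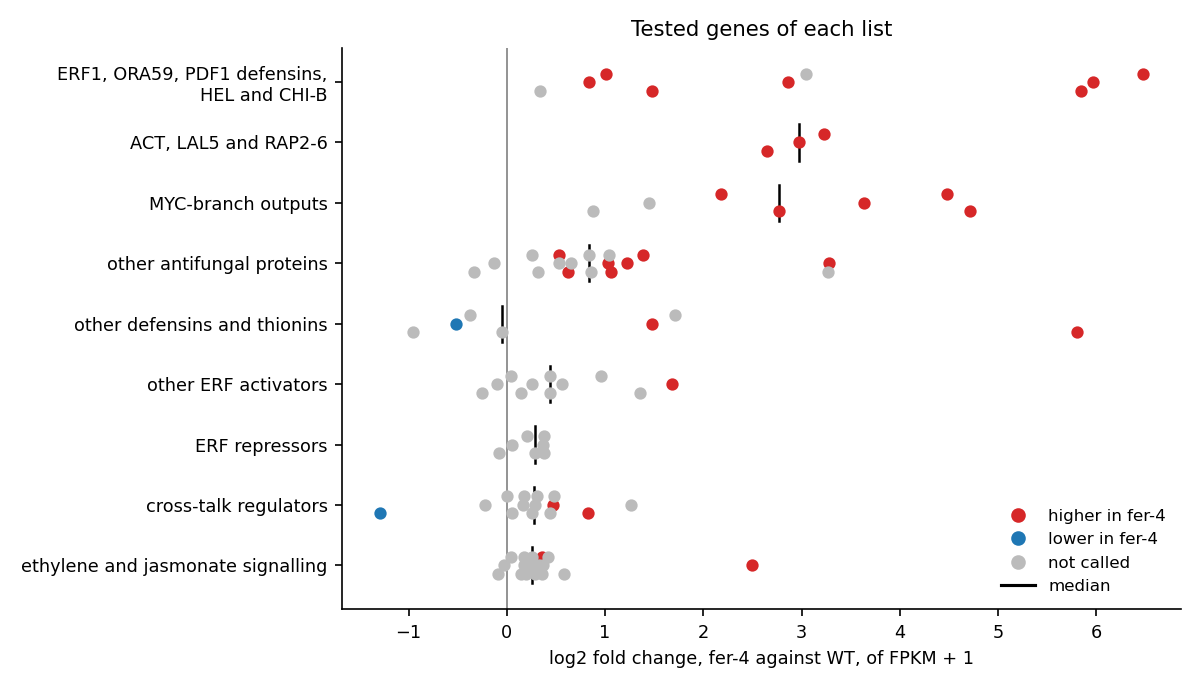
Log2 fold change of FPKM + 1, fer-4 against WT, of each tested gene in the ERF-branch set and in 8 lists, coloured by call, with the median of each of the 8 lists as a black line. The lines stand at 2.98 for ACT, LAL5 and RAP2-6, 2.77 for the MYC-branch outputs and 0.26 for the upstream signalling genes. The lists were chosen with earlier results of these data known, so the medians are no support for a shift of a list. Some genes, among them NATA1 and TAT3, passed the filter only through their fer-4 levels.

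Likeness of pattern was measured as the Euclidean distance of log2(FPKM + 1), centred over the 4 libraries, among 14601 genes averaging 5 FPKM or more. The 5 genes nearest to PDF1.2A were PDF1.2C (distance 0.705), FAMT (0.781), PDF1.3 (0.948), AT2G38240 (0.96) and DIN11 (0.999). Each of these 5 had a WT mean below 1 FPKM, passed the limit of 5 FPKM only through its fer-4 levels and so had to be higher there. The division of reads among PDF1.2A, PDF1.2C and PDF1.3 is uncertain, so the likeness of these copies is not independent. AT2G38240 and DIN11 are annotated as oxygenases of the 2-oxoglutarate family, and FAMT as a methyltransferase. FAMT measured 0.826 and 0.366 FPKM in the WT libraries and 45.1 and 113 FPKM in the mutant. The gene nearest to ORA59 was MYC2 (0.0451), followed by the remorin-family gene AT1G30320 (0.0786), the arogenate dehydratase gene ADT5 (0.092), AT4G22517 (0.0925) and AT3G25580 (0.0991). These distances rest on 4 libraries and are a description.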

How the data were processed

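The values are FPKM per gene, 1 file per library, as the authors deposited them, per the file headers. CASAVA, HISAT2 2.0.5 and StringTie 1.3.3, with the TAIR10 build, were used per the submitters' processing notes, which give no roles. The sources used here do not give the annotation release, strand setting or handling of multi-mapped reads. The files list only genes above 0 FPKM, and a missing gene was set to 0. Of 24252 identifiers, 24039 matched RefSeq TAIR10.1 and 213 did not. Positions and sequences come from that genome and annotation.

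Fragments were estimated by taking the cluster of smallest FPKM times length among single-exon genes over 1000 bases as 1 fragment. These depths are estimates.

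Values were tested as log2(FPKM + 1) with limma 3.58.1 (lmFit, eBayes with trend) in R 4.3.3, in genes averaging 1 FPKM or more, with Benjamini-Hochberg adjustment and a threshold of 0.05, without covariates. The pipeline was run on simulated data with a spread taken from the WT libraries, which does not cover the wider fer-4 spread of the defensins and HEL. An exact permutation test of 2 libraries against 2 cannot reach this threshold. The labels state no pairing of libraries, so the replicate number was no covariate and was used as a block in an alternative only. The deviations of same-numbered libraries correlated at -0.22 over tested genes, which cannot show whether the libraries were paired.

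The members and lists were chosen with earlier results of these data known. All members were named, and of each list every called gene up to 6, otherwise the 3 largest rises and falls. The alternatives were other pseudocounts (0.1, 0.5), filters (none, 5 FPKM), quantile or TPM scaling, no trend, a replicate block, a crossed block chosen after seeing the data, and leaving out each library.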

Additional observations from a re-analysis of the deposited data

How the results depend on the processing

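No alternative turned the direction of a tested member or of the summed PDF1.2 and PDF1.3 copies. Over the settings that leave out 1 library, 2 to 8 of the 9 tested members were called and 1688 to 4417 of all tested genes, against 7 and 4469 with all libraries, and the log2 fold change of the sum ran from 5.43 to 7.95. The low counts came without WT replicate 1 (2 members, 1905 genes) and without WT replicate 2 (2 members, 1688 genes), and without a fer-4 library 8 members were called each time. The cause was not tested. A genotype left with 1 library adds no spread of its own to these fits and is assumed to vary like the other. Without a filter 5 members were called, with quantile normalization or without the trend 6, and with a pseudocount of 0.1 there were 8. Quantile normalization gave 2285 genes higher and 2364 lower, against 2743 and 1726.

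With the replicate number as a block, 8 members and 3772 genes were called and the log2 fold change of the sum was 6.69. Pairing the libraries crosswise, chosen after seeing the data, gave 8 members and 5681 genes. The shared numbers were not shown to pair the libraries. Depth limits the WT levels of PDF1.2B, PDF1.2C, PDF1.3 and PDF1.4, which rest on 0 to 4.25 estimated fragments.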
